A study of Sus scrofa with 6 samples.

Results

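Integrins are receptors of the cell surface made of an alpha and a beta subunit. They hold a cell to the surrounding matrix, and inside the cell their tails bind adaptor proteins that link them to actin filaments, a site called the focal adhesion or, along the side of a cardiomyocyte, the costamere. In the heart muscle these sites carry force between the matrix and the sarcomeres, and several integrins also bind the latent form of TGF-β. The genes described here were chosen by name: every listed integrin alpha or beta gene, and 15 adaptors (TLN1, TLN2, FERMT2, TNS1, ILK, LIMS1, LIMS2, PARVA, PARVB, PARVG, PTK2, PXN, BCAR1, VCL and ZYX). This gave 40 of the 13288 rows of the expression table, with 16 alpha subunit rows, 8 beta subunit rows, ITGBL1 and the 15 adaptors, all of them protein coding. ITGBL1 was caught by its name alone, since it encodes a secreted protein with beta-like repeats and not a receptor subunit.

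RNA was sequenced from ventricular tissue of 3 male Tibetan minipigs with sham surgery (sham replicates 1 to 3) and 3 with descending aortic constriction (DAC replicates 4 to 6), taken at week 12 after surgery. The sham group had the operation without the constriction, and DAC serves as the study's large animal model of HFpEF, heart failure in which the ejection fraction is preserved, by chronic pressure overload. The age of the animals is not given in the sources used here. Each value is an FPKM, the number of fragments scaled by transcript length and by the fragments mapped in the sample, so levels of different genes can be set side by side. The tissue carried the defining markers of heart muscle: 8 of 10 cardiomyocyte markers were found by symbol, with a summed level between 12559 and 15678 FPKM, while MYH6 and PLN were not matched and the identifier of the row named MYH7 is paired with MYH6 in the gene table. Since the whole tissue was sequenced, more cells of a type and more RNA per cell cannot be told apart. The summed FPKM of a sample lay between 281377 and 308771, and mitochondrially encoded genes took 24.0% to 25.3% of it in the sham group, 27.1% to 27.2% in DAC replicates 4 and 6 and 32.8% in DAC replicate 5. A gene was tested when it reached 1 FPKM in at least 3 of the 6 samples, which 35 of the 40 genes did. Their differences are DAC minus sham in mean log2(FPKM + 1), a scale that understates the change of low genes.

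Some rows do not stand for a single gene. The row named ITGA2B (chr12:18775422-18877381 of susScr11) has an identifier that the gene table pairs with GPATCH8, and its interval holds both GPATCH8 and ITGA2B in the RefSeq annotation of Sscrofa11.1. ITGA2B encodes the platelet integrin αIIb, and the platelet markers GP9 and GP1BB were at most 1.69 FPKM in every sample, against 5.64 to 7.74 FPKM for this row. The row named ITGAM (chr3:17136161-17273657) also holds ITGAD and ITGAX, 2 other leukocyte alpha subunits that were matched to no row of their own. LIMS1 and PARVG carried no symbol in the table and were recognised by their gene identifier. All 40 intervals overlapped the RefSeq interval of the same symbol, and 11 of them also overlapped another listed row, such as ILK with RRP8 and TAF10 or ITGA7 with BLOC1S1 and METTL7B. Less abundant genes among the 11 included ITGA11 with FEM1B, ITGA9 with GOLGA4, ITGA1 with PELO, and ITGA10 with a row without a symbol. The assignment of reads from such overlaps is not given in the sources used here.

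The genes lay on 15 chromosomes, with 6 of them on chromosome 15 (ITGA4, ITGA6, ITGAV, ITGB6, LIMS2 and TNS1) and 5 each on chromosomes 5 and 12. PARVG and PARVB were the closest neighbours among them, 8036 bases apart on chromosome 5, and they differed widely in level: PARVB was between 7.02 and 12.9 FPKM, and PARVG did not exceed 0.678 FPKM. ITGA1 and ITGA2, both collagen receptors, were 31699 bases apart on chromosome 16. ITGA1 was between 8.70 and 12.3 FPKM, whereas ITGA2 did not exceed 0.606 FPKM.

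Transcript levels spanned a wide range, and few subunits were abundant. TNS1, which encodes tensin 1, a binder of integrin tails and actin, was highest by mean FPKM, at 255 ± 4.48 (SD, n = 3) in sham and 246 ± 23.4 (SD, n = 3) in DAC minipigs, which placed it 105th of the 11029 genes tested. ILK, the integrin-linked pseudokinase, was the next at a mean of 96.3 FPKM over the 6 samples. Then came the alpha subunits ITGA7 (79.5 FPKM) and ITGA5 (62.1 FPKM), ZYX (50.7 FPKM), the beta subunits ITGB5 (49.8 FPKM) and ITGB1 (39.1 FPKM), with TLN1 at 44.3 FPKM between them, and VCL (36.7 FPKM). The median of the 35 genes was 11.7 FPKM against 5.96 FPKM for all genes tested, and 24 of the 35 were above the latter. At the lower end, ITGB2, ITGBL1, ITGAL, ITGB4, ITGA8, ITGA10, ITGA3, the row named ITGAM and ITGB3 had means under 2 FPKM. Another 5 genes did not pass the filter: ITGA2 (0.117 to 0.606 FPKM), ITGA4 (0.233 to 0.624 FPKM), PARVG (0.368 to 0.678 FPKM), ITGB7 (0.499 to 1.05 FPKM) and ITGAE (0.418 to 1.39 FPKM). In none of these 5 did the DAC samples lie wholly above or below the sham samples.

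**Figure D1:**
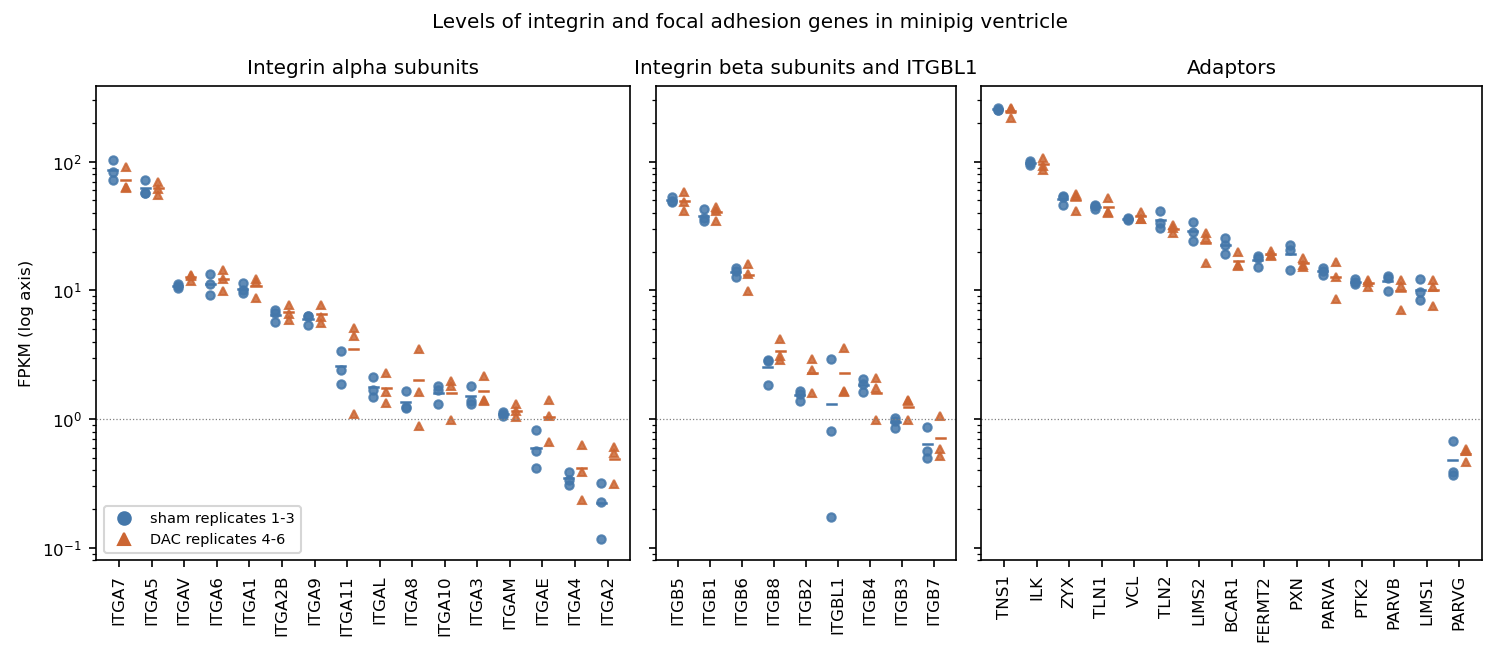
FPKM of the 40 genes on a log axis in each of the 3 sham samples (circles) and 3 DAC samples (triangles), with a short line at each group mean and a dotted line at 1 FPKM. The levels run from TNS1 at a mean of 251 FPKM down to ITGA2, and the samples of both groups overlap in every gene but ITGAV.

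Among the alpha subunits, ITGA7 and ITGA5 together made up 64.9% to 74.9% of the summed alpha FPKM. ITGA7 encodes α7, the laminin receptor subunit of striated muscle, and ITGA5 encodes α5, the classical fibronectin receptor subunit. The share of ITGA7 was 40.1%, 38.7% and 47.2% in the sham samples and 34.5%, 43.3% and 32.1% in the DAC samples, so the ranges overlap. For ITGA5 it was 25.9% to 34.7% in the sham group and 29.2% to 34.8% in the DAC group. ITGAV held 5.20%, 6.04% and 4.72% of the alpha sum in the sham samples and 6.45%, 6.18% and 6.65% in the DAC samples, so that its ranges did not overlap. The FPKM of ITGAV itself was also higher in all DAC samples than in all sham samples, as in 6.01% of all genes tested. Its share is therefore not a separate finding. Without the rows named ITGA2B and ITGAM, the ITGAV share was 4.90% to 6.26% against 6.45% to 6.90%. The alpha sum itself was 204 ± 16.7 FPKM (SD, n = 3) in sham and 197 ± 14.3 FPKM (SD, n = 3) in DAC minipigs.

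The beta subunits were led by ITGB5, ITGB1 and ITGB6, which held 90.7% to 93.8% of the summed beta FPKM in every sample. ITGB1 encodes β1, the partner of most alpha subunits including α5 and α7, while β5 and β6 pair with αV. Levels of ITGB5 exceeded those of ITGB1 in all 6 samples, by a ratio of 1.13 to 1.53 in the sham group and 1.08 to 1.40 in the DAC group. The beta sum was 110 ± 4.06 FPKM (SD, n = 3) in sham and 112 ± 12.6 FPKM (SD, n = 3) in DAC minipigs. The DAC samples lay on both sides of the sham range, at 97.6 FPKM in DAC replicate 4 and at 121 and 117 FPKM in DAC replicates 5 and 6.

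**Figure D2:**
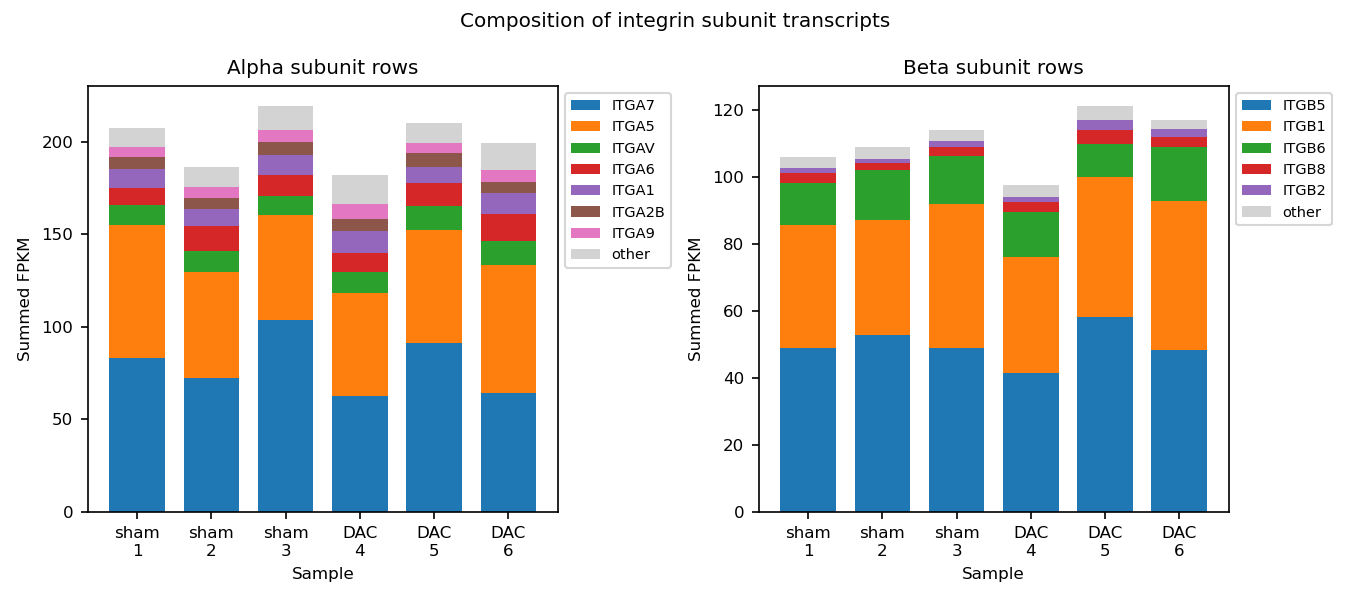
Summed FPKM of the alpha subunit rows (left) and the beta subunit rows (right) in each sample, stacked by gene with the lower genes in grey. ITGA7 and ITGA5 fill 64.9% to 74.9% of each alpha bar, and ITGB5 and ITGB1 are the largest blocks of each beta bar.

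Between the groups, the comparison asked whether the receptors and adaptors of the matrix shift under chronic pressure overload. With limma and the study's threshold, an unadjusted P under 0.05, none of the 35 genes was upregulated in the DAC group and 1, BCAR1, was downregulated. Over all genes tested, 3.25% (358 genes) were upregulated and 5.27% (581 genes) were downregulated at this threshold. This balance depended on the scaling, with 429 and 479 genes after median scaling, 418 and 469 after quantile normalization, and 502 and 408 with mitochondrially encoded genes left out. After Benjamini-Hochberg adjustment over all 11029 genes by limma, 0% passed 0.05 and the smallest adjusted P of the 35 genes was 0.581. Mean log2 levels were higher under DAC in 17 of the 35 genes and lower in 18, with a median log2 difference of -0.01 against -0.02 for all genes tested. The median size of the difference, without its sign, was 0.10 against 0.13 for all genes, and the median standard error (SE) was 0.15 against 0.14. In 1 gene, ITGAV, all DAC samples were above all sham samples, a pattern shown by 6.01% of all genes tested. All DAC samples were below all sham samples in 0 of the 35 genes and in 8.91% of all genes.

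How large a difference the data still allow can be read from the 95% intervals. In 19 of the 35 genes the interval lay inside a difference of 0.5 in log2(FPKM + 1) in either direction, and in 33 it lay inside a difference of 1. For genes near 1 FPKM, such as ITGA8, these limits stand for a larger fold change of the FPKM itself. The shares were 54.3% and 94.3%, against 53.2% and 92.4% of all genes tested. The wide intervals belonged to ITGBL1 (-0.40 to 1.67 on the log2 scale) and ITGA11 (-0.72 to 1.17). An exact two-sided permutation test of 3 minipigs against 3 cannot give a P below 0.1.

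**Figure D3:**
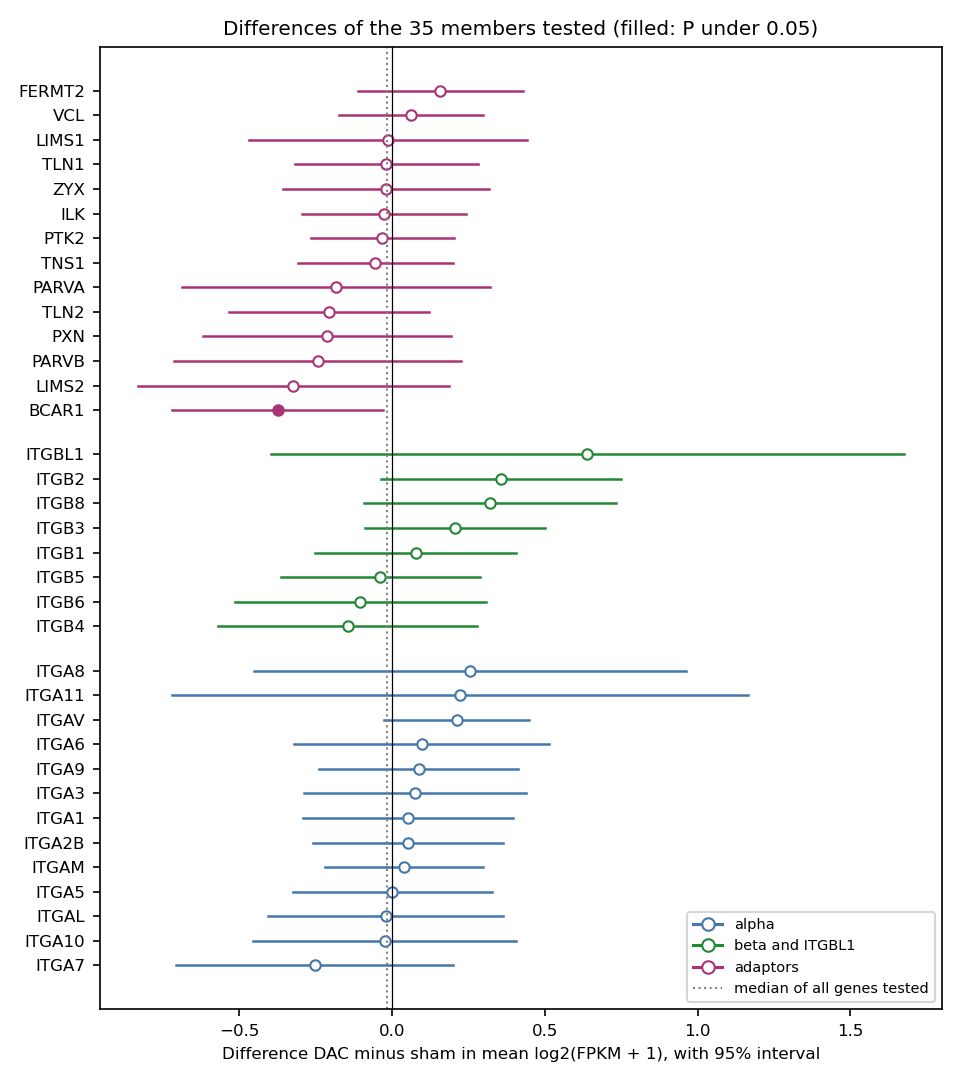
Difference DAC minus sham in mean log2(FPKM + 1) of each of the 35 genes tested (points) with its 95% interval (lines), grouped as alpha subunits, beta subunits with ITGBL1, and adaptors. BCAR1 is the only gene whose interval lies wholly on a single side of 0, and the dotted line marks the median of all genes tested.

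The alpha subunits that recognise the tripeptide arginine-glycine-aspartate (RGD), found in fibronectin and vitronectin, were 4 tested rows, none of them past the threshold. ITGAV (chr15:91604676-91711840), the partner of β1, β3, β5, β6 and β8, was at 10.8, 11.2 and 10.3 FPKM in the sham samples and at 11.7, 13.0 and 13.3 FPKM in the DAC samples. The lowest DAC sample, replicate 4, stood above the highest sham sample. The group values were 10.8 ± 0.455 FPKM (SD, n = 3) and 12.7 ± 0.813 FPKM (SD, n = 3), a log2 difference of 0.21 (standard error 0.10, 95% interval -0.02 to 0.45). It missed the threshold in limma (P = 0.0720, adjusted P = 0.596, exact permutation P = 0.1). ITGAV passed the threshold in limma with mitochondrially encoded genes left out, after quantile normalization, with its variance estimated on its own and without DAC replicate 4, where the log2 difference lay between 0.21 and 0.26. Under the other alternatives it did not pass. With 1 sample left out, its log2 difference lay between 0.18 and 0.26. The study had picked ITGAV from these samples as a gene of fibrosis, so its direction here is not independent evidence.

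For ITGA5, sham values of 72.0, 57.5 and 56.7 FPKM stood beside DAC values of 55.4, 61.4 and 69.3 FPKM. Its log2 difference was 0.00 with a 95% interval from -0.33 to 0.33, and the groups overlapped throughout. ITGA8 encodes α8, which pairs with β1 and binds fibronectin and nephronectin. It was at 1.24, 1.21 and 1.64 FPKM in the sham samples and at 3.52, 1.62 and 0.876 FPKM in the DAC samples, so that DAC replicate 4 was above and DAC replicate 6 below every sham sample. The log2 difference of ITGA8 turned from 0.26 to -0.09 without DAC replicate 4 and was 0.55 without DAC replicate 6. The row named ITGA2B was at 5.64 to 6.98 FPKM in the sham group and at 5.92 to 7.74 FPKM in the DAC group.

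The laminin-binding subunits were ITGA7, ITGA6 and ITGA3. ITGA7 was at 83.2, 72.2 and 104 FPKM in the sham samples and at 62.7, 91.1 and 64.0 FPKM in the DAC samples. DAC replicates 4 and 6 were below all sham samples, while DAC replicate 5 lay within the sham range. The log2 difference was -0.25 (SE 0.19, limma adjusted P = 0.724), and without DAC replicate 5 it was -0.42 and past the threshold. Without sham replicate 3 it was -0.11. ITGA6 encodes α6, which pairs with β1 or β4 and was at 11.3 ± 2.08 FPKM (SD, n = 3) and 12.1 ± 2.27 FPKM (SD, n = 3). ITGA3 was low, from 1.32 to 1.79 FPKM in the sham group and from 1.37 to 2.16 FPKM in the DAC group.

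Of the collagen-binding subunits, ITGA1 was the most abundant in FPKM, at 10.3 ± 0.886 (SD, n = 3) in sham and 10.8 ± 1.90 (SD, n = 3) in DAC minipigs. ITGA11, whose product α11 is a collagen I receptor of fibroblasts, was at 1.88, 2.40 and 3.41 FPKM in the sham samples and at 4.42, 1.09 and 5.07 FPKM in the DAC samples. DAC replicates 4 and 6 were above every sham sample, and DAC replicate 5 was below every sham sample. The log2 difference of ITGA11 was 0.22 (SE 0.40, limma adjusted P = 0.891) with all samples. It was 0.71 and past the threshold without DAC replicate 5, and -0.06 without DAC replicate 6. ITGA10, the α10 subunit known from cartilage, was lowest in DAC replicate 5 as well, at 0.974 FPKM against 1.31 to 1.99 FPKM in the other samples. ITGA9, whose product binds tenascin-C and VCAM-1, was at 5.38 to 6.36 FPKM in the sham group and at 5.58 to 7.74 FPKM in the DAC group.

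ITGB2 encodes β2, the shared beta subunit of the leukocyte integrins. It was at 1.57, 1.38 and 1.66 FPKM in the sham samples and at 1.59, 2.91 and 2.39 FPKM in the DAC samples. DAC replicates 5 and 6 were above every sham sample, and DAC replicate 4 was within the sham range. The log2 difference was 0.36 (SE 0.17, limma adjusted P = 0.596), and without DAC replicate 4 it was 0.52 and past the threshold. Without DAC replicate 5 it was 0.22. Its alpha partners were ITGAL, at 1.49 to 2.14 FPKM in the sham group and 1.34 to 2.29 FPKM in the DAC group, and the row named ITGAM, at 1.06 to 1.14 FPKM and 1.04 to 1.30 FPKM. The summed FPKM of ITGB2, ITGB7, ITGAL, ITGAM, ITGAE and ITGA4 was 5.66, 5.75 and 6.60 in the sham samples and 6.11, 8.84 and 7.18 in the DAC samples. Beside it, the summed FPKM of 10 leukocyte markers found out of 12 was 68.0, 60.3 and 71.5 in the sham samples and 52.7, 79.7 and 67.0 in the DAC samples. Both sums were highest in DAC replicate 5, and PTPRC, the pan-leukocyte marker CD45, was at 1.86 to 1.99 FPKM in the sham group and at 1.61, 3.49 and 2.64 FPKM in the DAC group. Of the 9 leukocyte markers tested, 5 had a higher mean log2 level under DAC and 4 a lower one. The 1 past the threshold was CD163, which was downregulated (log2 difference -0.43), beside 5.27% of all genes. CD14 was at -0.38, CD68 at 0.50 and PTPRC at 0.26. No found leukocyte marker was at 0. The part of leukocyte content in the level of ITGB2 was not tested.

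ITGB8 and ITGB3, partners of αV, had log2 differences of 0.32 (SE 0.18, limma adjusted P = 0.643) and 0.21 (SE 0.13, limma adjusted P = 0.662). ITGB8 was at 2.89, 1.84 and 2.82 FPKM in the sham samples and at 3.07, 4.21 and 2.88 FPKM in the DAC samples, with DAC replicate 5 the highest. Its log2 difference went to 0.18 with sham replicate 2 left out and to 0.19 with DAC replicate 5 left out. ITGB3, the β3 subunit of the vitronectin receptor, was near the filter in the sham samples at 0.856, 1.01 and 0.960 FPKM, and was at 0.975, 1.40 and 1.38 FPKM in the DAC samples. Without DAC replicate 4 its log2 difference was 0.30 and past the threshold, and with a pseudocount of 0.1 it was 0.36. Without sham replicate 1 it was 0.17. With sham replicate 2, DAC replicate 5 or DAC replicate 6 left out, ITGB3 fell under the filter and was not tested. The abundant beta subunits moved less: the log2 difference was 0.08 for ITGB1 and -0.04 for ITGB5, each within its standard error of 0.14. ITGB6, the β6 subunit best known from epithelia, was at 12.6 to 15.0 FPKM in the sham group, and at 9.89 FPKM in DAC replicate 5 against 13.4 and 16.0 FPKM in DAC replicates 4 and 6. ITGB4, the hemidesmosome partner of α6, was at 0.983 FPKM in DAC replicate 6 and at 1.61 to 2.08 FPKM elsewhere.

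ITGBL1 had the largest standard error of the 35 genes. It was at 2.92, 0.174 and 0.810 FPKM in the sham samples and at 1.62, 3.54 and 1.65 FPKM in the DAC samples. Sham replicate 1 was above 2 of the DAC samples, and the other sham samples were below all of them. The log2 difference of 0.64 had a standard error of 0.44 (adjusted P = 0.704 from limma), and it ranged from 0.24 without sham replicate 2 to 1.11 without sham replicate 1, where it passed the threshold. With a pseudocount of 0.1 in place of 1 it was 1.29.

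Among the adaptors, BCAR1 (chr6:12367758-12404822), which encodes p130Cas, a docking protein that focal adhesion kinase and Src phosphorylate, was the gene past the threshold. Its level was 25.3, 22.6 and 19.2 FPKM in the sham samples and 15.5, 15.8 and 19.8 FPKM in the DAC samples. DAC replicates 4 and 5 were below all sham samples, whereas DAC replicate 6 was above sham replicate 3, so the groups overlapped. The means were 22.4 ± 3.07 FPKM (SD, n = 3) and 17.0 ± 2.42 FPKM (SD, n = 3). The log2 difference was -0.37 (standard error 0.15, 95% interval -0.72 to -0.03), with a P of 0.0368 and an adjusted P of 0.581 from limma and an exact permutation P of 0.2. BCAR1 was no longer past the threshold after quantile normalization, with mitochondrially encoded genes left out, with its variance estimated on its own, with sample weights, or without any of sham replicates 1 and 2 and DAC replicates 4 and 5. With 1 sample left out, its log2 difference lay between -0.48 and -0.28.

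The other scaffolds of focal adhesion signalling did not reach the threshold with all samples. PXN, which encodes paxillin, was at 22.7, 20.5 and 14.5 FPKM in the sham samples and at 15.9, 17.7 and 15.1 FPKM in the DAC samples. Sham replicate 3 was below every DAC sample, and without it the log2 difference went from -0.21 to -0.39 and passed the threshold. Without sham replicate 1 it was -0.09. PTK2, which encodes focal adhesion kinase, was at 11.7 ± 0.532 FPKM (SD, n = 3) and 11.4 ± 0.681 FPKM (SD, n = 3). The 95% interval of its log2 difference ran from -0.27 to 0.20.

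Of the adaptors that bind beta tails directly, TLN1 and TLN2 encode talins, and TLN2 is the isoform favoured by striated muscle. TLN2 was at 41.5, 30.6 and 33.3 FPKM in the sham samples and at 27.7, 30.5 and 32.4 FPKM in the DAC samples, with DAC replicates 4 and 5 below all sham samples (log2 difference -0.20, SE 0.14, limma adjusted P = 0.699). Without sham replicate 1 its log2 difference was -0.08. TLN1 was at 44.5 ± 1.74 FPKM (SD, n = 3) and 44.2 ± 6.64 FPKM (SD, n = 3). TLN2 stayed below TLN1 in every sample, at a ratio of 0.676 to 0.978 in the sham group and 0.625 to 0.760 in the DAC group. FERMT2, the kindlin of muscle, was at 17.2 ± 1.88 FPKM (SD, n = 3) and 19.2 ± 0.980 FPKM (SD, n = 3), with a log2 difference of 0.16 (SE 0.11, limma adjusted P = 0.713) that was 0.07 without sham replicate 3. TNS1 was lowest in DAC replicate 5, at 220 FPKM against 252 to 263 FPKM in the other samples.

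ILK forms a complex with a PINCH protein (LIMS1 or LIMS2) and a parvin, which ties integrins to actin. All 5 tested genes of the complex averaged lower under DAC, beside 53.4% of all genes, and none passed the threshold. That count was 3 of 5 after quantile normalization, with sample weights, without the mitochondrially encoded genes and without DAC replicate 5. It was 4 of 5 after median scaling and without sham replicate 1, sham replicate 2 or DAC replicate 6. The log2 differences of LIMS1 (-0.01) and ILK (-0.03) were close to 0. ILK was at 97.0 ± 3.60 FPKM (SD, n = 3) and 95.6 ± 10.9 FPKM (SD, n = 3). LIMS2 was at 33.9, 28.6 and 24.1 FPKM in the sham samples and at 25.3, 16.4 and 27.9 FPKM in the DAC samples. DAC replicate 5 was the lowest of all, and its removal took the log2 difference of LIMS2 from -0.32 (SE 0.22, limma adjusted P = 0.695) to -0.10. The level of LIMS2 exceeded that of LIMS1 in every sample, by a ratio of 2.34 to 3.50 in the sham group and 2.16 to 2.40 in the DAC group. PARVA and PARVB were both lowest in DAC replicate 6, at 8.63 and 7.02 FPKM. Elsewhere PARVA was at 12.6 to 16.7 FPKM and PARVB at 9.93 to 12.9 FPKM, and without DAC replicate 6 their log2 differences were 0.05 and -0.04 in place of -0.18 and -0.24.

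VCL and ZYX connect the adhesion to actin. VCL, which encodes vinculin, varied little in the sham group, at 35.9, 35.2 and 36.4 FPKM, beside 35.7, 35.9 and 40.9 FPKM in the DAC samples. ZYX, which encodes zyxin, a protein of stressed actin fibres, was at 51.0 ± 4.37 FPKM (SD, n = 3) and 50.5 ± 7.81 FPKM (SD, n = 3). In both genes the highest value was in DAC replicate 6.

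Counts of the sign of the log2 differences among adaptors and alpha subunits depended on the setting. Of the 14 tested adaptors 12 were lower under DAC, beside 53.4% of all genes, and this count was 9 after median scaling (49.0% of all genes), 8 with sample weights (52.8%), 7 with mitochondrially encoded genes left out (45.7%), 7 without DAC replicate 5 (51.4%) and 6 after quantile normalization (49.1%). Of the 13 tested alpha subunits 10 had a higher mean log2 level under DAC, beside 46.6% of all genes. These 10 include the rows named ITGA2B (0.05) and ITGAM (0.04), which do not stand for a single gene. Over the alternatives with all 13 tested, the count of higher alpha subunits was between 7 without DAC replicate 6 and 12 with mitochondrially encoded genes left out. A log2 difference under 0.1 in size was found in 7 of the 14 adaptors and 9 of the 13 alpha subunits. It was found in 18 of the 35 genes, beside 4410 of the 11029 genes tested.

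DAC replicate 5, the sample with the largest mitochondrial share, was the highest or lowest sample in 19 of these genes. It had the highest value of the 6 samples in 9 of the 35 genes and the lowest in 10, where over all genes tested it was highest in 14.9% and lowest in 23.6%. Its high genes included ITGB2, ITGB8, ITGB5 and ITGBL1, and its low genes included TNS1, ILK, LIMS1, LIMS2, ZYX, ITGA1, ITGA10 and ITGA11. DAC replicate 4 was highest in 7 genes and lowest in 9, beside 19.3% and 21.1% of all genes. DAC replicate 6 was highest in 10 genes and lowest in 4, beside 17.6% and 12.4% of all genes. The part of the mitochondrial share in these values was not tested.

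**Figure D4:**
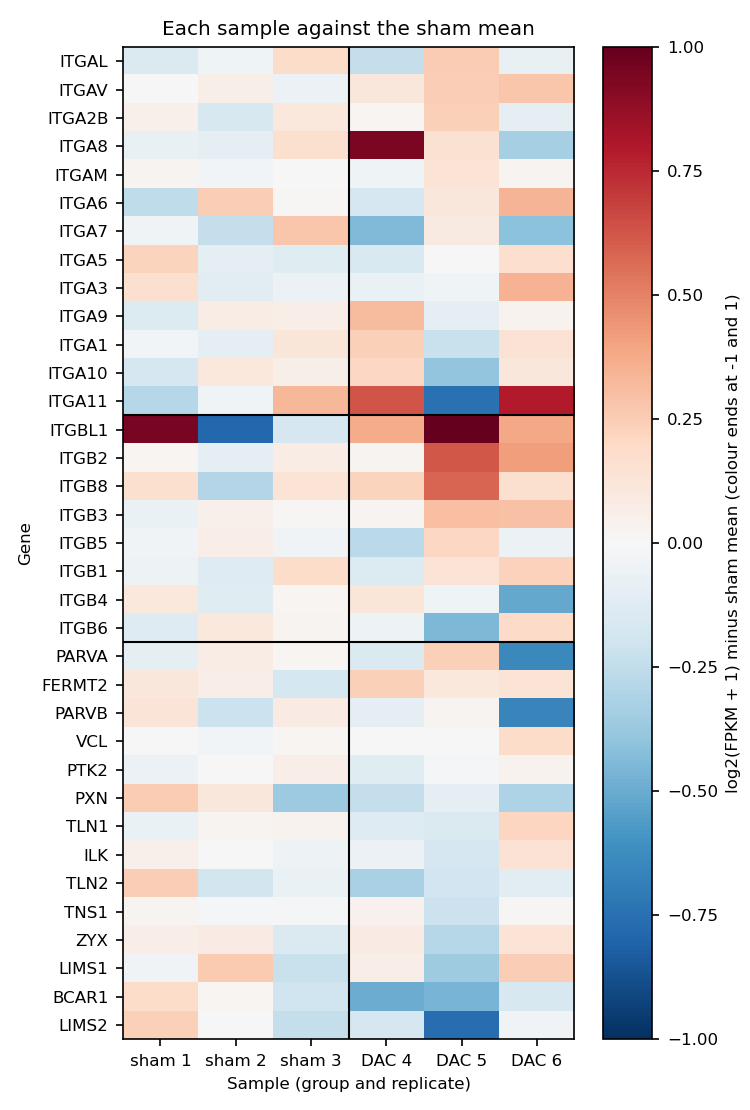
Colour map of log2(FPKM + 1) minus the sham mean for the 35 genes tested (rows, alpha subunits above, then beta subunits with ITGBL1, then adaptors) in the 6 samples (columns), with the colour scale ending at -1 and 1. In DAC replicate 5, ITGBL1, ITGB2 and ITGB8 are high and ITGA11 and LIMS2 are low, while ITGA8 stands out in DAC replicate 4 and PARVA and PARVB are low in DAC replicate 6.

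Other genes of the focal adhesion gave the same count of calls as the 35 genes. Of 74 genes listed for it (further adaptors, actin linkers, kinases and small GTPases), 69 were in the table and 68 were tested. None was upregulated, beside 3.25% of all genes, and 1 was downregulated, beside 5.27% of all genes, with a median log2 difference of 0.04. This was GIT1, a scaffold that binds paxillin and turns over adhesions, at 11.8, 12.8 and 12.3 FPKM in the sham samples and at 10.2, 8.14 and 9.72 FPKM in the DAC samples. All DAC samples of GIT1 were below all sham samples, as in 4 of the 68 genes and 8.91% of all genes, with a log2 difference of -0.36 (SE 0.11, limma adjusted P = 0.522). The list held up to 1 upregulated and 3 downregulated genes over the alternatives.

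Ligands of integrins were past the threshold in both directions. Of 47 listed ligand symbols, some of them older names, 39 were in the table and 35 were tested. The upregulated ligands were 7 of the 35, beside 3.25% of all genes, and the downregulated ligands were 3, beside 5.27% of all genes, with a median log2 difference of 0.11. Over the alternatives, 5 to 8 were upregulated and 2 to 4 downregulated. FN1, which encodes fibronectin, the ligand of α5β1 and the αV integrins, was at 26.8, 21.5 and 16.2 FPKM in the sham samples and at 33.1, 45.2 and 51.0 FPKM in the DAC samples, so every DAC sample was above every sham sample (log2 difference 0.98, SE 0.22, limma adjusted P = 0.441). Collagen I and III, ligands of α1β1, α2β1 and α11β1, had log2 differences of 0.81 for COL1A1, 0.59 for COL1A2 and 0.46 for COL3A1. POSTN, which encodes periostin, a matrix protein bound by αV integrins, was at 2.28 ± 0.520 FPKM (SD, n = 3) and 4.34 ± 0.507 FPKM (SD, n = 3). The study had chosen FN1, COL1A1, COL1A2 and COL3A1 from these samples as genes of fibrosis, so their direction is not independent evidence. The ligand list holds these genes and was written with earlier results of these data known. Its share of upregulated genes is therefore not independent evidence either. The other 2 upregulated ligands, COL5A2, also on the study's own list, and VCAM1, an endothelial ligand of α4 and α9, are named after their values were seen, with log2 differences of 0.36 and 0.53.

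The 3 downregulated ligands are all known from the vessel wall. VWF, the αIIbβ3 ligand of platelets and endothelium, was at 44.0 ± 6.25 FPKM (SD, n = 3) and 31.1 ± 3.77 FPKM (SD, n = 3), ICAM2, a ligand of the leukocyte integrin αLβ2, had a log2 difference of -0.42, and JAM3, a junction protein bound by αMβ2, had one of -0.36. The rows named VWF and ICAM2 have identifiers that the gene table pairs with ANO2 and ERN1, so the identity of these rows is uncertain. Beside these ligands, the summed FPKM of 8 fibroblast markers was 341 to 394 in the sham group and 419 to 539 in the DAC group with COL1A1 counted, and 256 to 293 and 230 to 402 without it, where the groups overlap. Of these markers LUM, which encodes the matrix proteoglycan lumican, was also upregulated at a log2 difference of 0.74. PDGFRA was at 0.24, PI16 at 0.17 and DPT at 0.08, while DCN was at -0.01, TCF21 at -0.02 and MFAP5 at -0.03. The summed FPKM of 8 endothelial markers was 118 to 169 and 112 to 160 with VWF, and 80.9 to 124 and 84.3 to 126 without it. Of these endothelial markers 2 were upregulated, beside 3.25% of all genes, with log2 differences of 0.60 for KDR and 0.39 for EMCN. Another 2 were downregulated, beside 5.27% of all genes, at -1.22 for CLDN5 and -0.49 for the row named VWF. The uncalled ones were at -0.26 for PECAM1, -0.22 for CDH5, -0.14 for TIE1 and 0.19 for TEK. The summed FPKM of 8 smooth muscle markers was 169 to 202 in the sham group and 204 to 225 in the DAC group. These sums did not overlap, but the gap was narrow. In 0 of the 8 markers alone were all DAC samples above all sham samples, beside 6.01% of all genes. Of the 8 markers, 7 had a higher mean log2 level under DAC, beside 46.6% of all genes. The 1 past the threshold was CNN1, upregulated at a log2 difference of 0.60, beside 3.25% of all genes. The part of cell content in the ligand values was not tested.

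**Figure D5:**
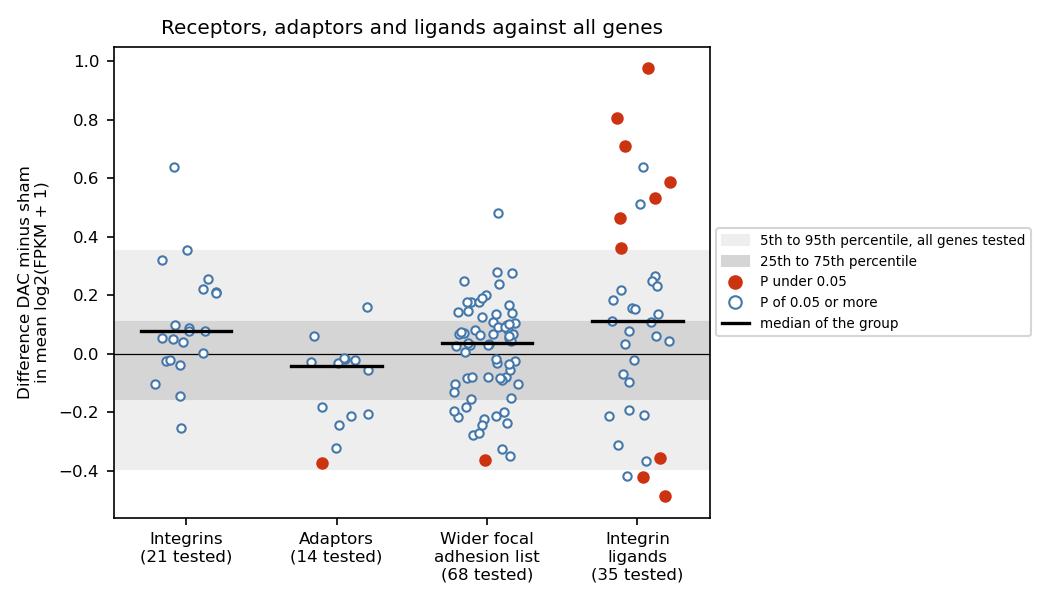
Difference DAC minus sham in mean log2(FPKM + 1) for the 21 integrin rows tested (with ITGBL1), the 14 adaptors, the 68 genes of the wider focal adhesion list and the 35 integrin ligands. Filled red points have a P under 0.05 from limma, black lines are group medians and grey bands hold the middle of all genes tested. The ligands hold 10 filled points and the other groups hold 1, BCAR1 or GIT1, or none. The genes and lists were chosen with earlier results of these data known.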

How the data were processed

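Total RNA of ventricular tissue was extracted with TRIzol, and paired-end libraries from a NEBNext Ultra kit were read on the Illumina HiSeq system. The authors deposited 1 table of FPKM per gene with a column for each minipig, and no samples were pooled. The submitters' processing notes name HISAT2 and the build susScr11, and the quantification program is not given in the sources used here. Every listed gene reached 0.500 FPKM in its highest sample. The depth is unknown: among at least 3459 genes under 2 FPKM in a pair of samples, at most 6 had the same log2 ratio, so no steps of whole reads were seen, and the precision rests on the spread between minipigs alone.

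Log2(FPKM + 1) was compared in R 4.3.3 with limma 3.58.1 (linear model, moderated test with a variance trend) over the 11029 genes that reached 1 FPKM in 3 or more of the 6 samples. P was adjusted over all of them by the Benjamini-Hochberg method, and genes with an unadjusted P under 0.05 were called, which is the study's threshold. Exact permutation tests were two-sided. The fit was tested on simulated data. Symbols came from the table, or by gene identifier for 520 rows without a symbol. Every chosen gene is accounted for, and of the wider focal adhesion and ligand lists those called were named, at most 8 a list by smallest P. The genes and lists were chosen with earlier results of these data known. Alternatives changed the filter (none, or 5 FPKM), the scaling (median, quantile, or without mitochondrially encoded genes), the pseudocount (0.1), the variance (each gene on its own), the weights of the samples, or left out each sample in turn. Leaving out the rows named ITGA2B and ITGAM was added after seeing the data, as were the fibroblast sum without COL1A1 and the endothelial sum without VWF. Figures used Python 3.11.15 with matplotlib 3.10.9.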

Additional observations from a re-analysis of the deposited data

How the results depend on the processing

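Over 14 alternatives to the fit with all samples, 476 differences of the 35 genes were recomputed. Of these, 400 kept their direction and their side of the threshold, 18 crossed the threshold in the same direction and 58 changed sign. The sign held throughout in 14 genes and changed in 21, none of which had a log2 difference over 0.26 in size.

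The number of the 35 genes called higher in the DAC group was 0, and it was 1 (ITGAV) after quantile normalization, with mitochondrially encoded genes left out and with the variance of each gene on its own, and 0 to 3 with 1 sample left out. The number called lower was 1 (BCAR1), and it was 0 after quantile normalization, with mitochondrially encoded genes left out, with the variance of each gene on its own and with sample weights, and 0 to 2 with 1 sample left out. The median log2 difference of -0.013 was 0.046 with no filter, 0.039 after quantile normalization, 0.027 with mitochondrially encoded genes left out, and -0.032 to 0.047 with 1 sample left out, the latter without DAC replicate 5. With a minimum of 5 FPKM, 9 of 24 genes had a higher DAC mean and 165 genes of the whole table were called higher, where fewer genes were tested. Over all genes, 352 to 668 were called lower with 1 sample left out, the fewest without sham replicate 1, and it was 385 without sham replicate 3. Leaving out the rows named ITGA2B and ITGAM gave a median of -0.019, with a higher DAC mean in 15 of 33 genes.

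Signs turned from lower to higher after median scaling for LIMS1 (0.0091), TLN1 (0.0054) and ZYX (0.0038). After quantile normalization they turned for ILK (0.047), LIMS1 (0.022), PTK2 (0.0088), TLN1 (0.023), TNS1 (0.063) and ZYX (0.028). With mitochondrially encoded genes left out they turned for ILK (0.018), ITGA10 (0.0028), ITGAL (0.0077), ITGB5 (0.0061), LIMS1 (0.027), PTK2 (0.0094), TLN1 (0.025) and ZYX (0.023), and with sample weights for ILK (0.0013), ITGA10 (0.0045), LIMS1 (0.055), TLN1 (0.013) and ZYX (0.018). The median log2 difference of all genes also turned, from -0.016 to 0.0043 after median scaling and 0.0047 after quantile normalization. It was 0.02 with mitochondrially encoded genes left out and -0.013 with sample weights. The part of this shift in the turns of single genes was not tested.

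With 1 sample left out, the log2 difference ranged from -0.038 to 0.19 for ITGA1, -0.057 to 0.16 for ITGA3, -0.08 to 0.11 for ITGA5, -0.028 to 0.23 for ITGA6, -0.087 to 0.55 for ITGA8, -0.029 to 0.18 for ITGA9, -0.14 to 0.16 for ITGA10, -0.061 to 0.71 for ITGA11, -0.04 to 0.13 for the row named ITGA2B, -0.16 to 0.089 for ITGAL and -0.0065 to 0.082 for the row named ITGAM. It ranged from -0.28 to 0.039 for ITGB4, -0.16 to 0.077 for ITGB5 and -0.25 to 0.071 for ITGB6. Among the adaptors it was -0.11 to 0.046 for ILK, -0.14 to 0.16 for LIMS1, -0.39 to 0.047 for PARVA, -0.065 to 0.013 for PTK2, -0.14 to 0.044 for TLN1, -0.10 to 0.026 for TNS1 and -0.10 to 0.11 for ZYX. Of the genes that kept their sign, LIMS2 ranged from -0.47 to -0.10 and PARVB from -0.38 to -0.035. No paired analysis was run, because the minipigs had been assigned at random to separate groups.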
